A study of Mus musculus with 3 samples.

Results

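The 9 genes described here encode the steps of the urea cycle and the enzymes that split or oxidise arginine: Nags, Cps1, Slc25a15, Otc, Ass1, Asl, Arg1, Arg2 and Nos2. They were taken by gene symbol from the 31053 features of the deposited single-cell count matrices, and all 9 were found. Liver non-parenchymal cells, the cells of the liver other than hepatocytes, had been dissociated after perfusion from female Balb/c mice (written Balb\c in the labels) and run on 10x Genomics droplets with 3′ chemistry. The mice were 8 weeks old at an orthotopic injection of 4T1 cells, a mouse mammary carcinoma line, or of PBS. The day 4 library came from mice labelled 8 weeks old, taken 4 days after 4T1 cells. The day 21 library came from mice labelled 11 weeks old, taken 21 days after 4T1 cells. The control library came from PBS-injected mice labelled 8 weeks old. The labels used here give neither the number of mice behind a library nor the day on which the control was taken. Each group is 1 library, so no value below has a replicate, no test was possible, and every interval is a 95% interval that covers counting error only.

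The urea cycle turns ammonia into urea, and in the liver its full set of enzymes is characteristic of hepatocytes, most of all those near the portal vein. Nags makes N-acetylglutamate, the activator that Cps1 needs to form carbamoyl phosphate in the mitochondrion; Otc joins this to ornithine, which the carrier Slc25a15 brings in, and gives citrulline. In the cytosol Ass1 and Asl turn citrulline into arginine, and Arg1 cuts arginine into urea and ornithine. Ass1 and Asl also serve other cells, which use them to rebuild arginine from citrulline. Arg2 is the mitochondrial arginase of tissues outside the urea cycle, and Nos2 is the inducible nitric oxide synthase, which competes with arginases for arginine. Arg1 in myeloid cells of mouse tumours is widely used as a marker of suppressive macrophages and neutrophils.

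The sequences upstream of Ass1 and Otc are shown because these were the 2 members that met the call rule below in the cluster rich in hepatocyte transcripts at day 4. They are the 250 bases before each RefSeq start on GRCm38.p6, both on the plus strand, 5′ to 3′. Ass1 lies at chr2:31470207-31520672 on the plus strand in GENCODE M21, its window at chr2:31470020-31470269, and the GENCODE start therefore falls inside that window. Otc lies at chrX:10252305-10321024 on the plus strand and its window at chrX:10252055-10252304. Capitals mark matches to the motifs searched on both strands.
Ass1: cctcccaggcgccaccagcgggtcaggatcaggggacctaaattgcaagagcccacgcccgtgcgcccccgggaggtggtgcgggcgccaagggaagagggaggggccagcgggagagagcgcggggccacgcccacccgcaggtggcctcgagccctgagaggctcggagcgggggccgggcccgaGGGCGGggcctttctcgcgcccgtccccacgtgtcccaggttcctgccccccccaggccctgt
Otc: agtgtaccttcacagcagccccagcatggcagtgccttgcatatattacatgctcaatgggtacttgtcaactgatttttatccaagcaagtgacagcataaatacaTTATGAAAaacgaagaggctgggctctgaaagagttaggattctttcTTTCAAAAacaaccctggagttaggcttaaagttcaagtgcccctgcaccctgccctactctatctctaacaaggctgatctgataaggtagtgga
The Ass1 window was 75.6% G and C and held 1 GC box (GGGCGG), which begins 63 bases before the RefSeq start. The Otc window was 43.6% G and C and held 2 matches to the C/EBP-type motif TTNNGNAA, which begin 143 and 96 bases before the start and do not overlap. The median over all 32851 promoters of the RefSeq table was 52.4%. A GC box stood in 32.74% of those promoters and TTNNGNAA in 36.85%, so each match is common. Neither window held the TATA box TATAAA (12.37% of promoters), the CCAAT box (33.85%) or the HNF4-type motif CAAAGTCCA (0.3835%). The table matched 4 of the 9 members, Nags and Slc25a15 being the others.

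The deposited matrices held 9175, 12338 and 6489 barcodes in the day 4, day 21 and control libraries, with 34833820, 51913215 and 27191082 UMIs. UMIs are molecular tags counted at the 3′ end of transcripts, so levels were not divided by gene length and are compared for 1 gene across cells and libraries, not between genes. Between 13 and 32 barcodes were shared by any pair of libraries. A floor of 200 genes and a ceiling of 20% mitochondrial UMIs took out 39.96% of barcodes at day 4, 13.52% at day 21 and 27.05% in the control. After doublet removal 5410, 9938 and 4694 cells were left. A set of 17 transcripts of hepatocytes such as albumin made up 0.754%, 0.128% and 0.726% of all UMIs at day 4, day 21 and in the control. Cells were clustered without the 9 genes and their pathway lists. The labelled non-parenchymal types were present, with Kupffer-like, endothelial-like, stellate-like and lymphocyte-like clusters found by their markers, and 25 of 32 clusters could be named.

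Relative to all UMIs of a library, the 7 genes of the cycle were highest at day 4 and Arg2 and Nos2 at day 21. Cps1 had 2901 UMIs at day 4, 392 at day 21 and 1123 in the control, which is 83.3, 7.55 and 41.3 CPM, the UMIs of a gene per 1000000 UMIs. Otc had 957, 392 and 399 UMIs at day 4, day 21 and in the control, Ass1 4151, 4491 and 1806, Asl 1575, 1259 and 1075, and Arg1 1539, 638 and 808. Slc25a15 had 621, 327 and 382 UMIs in the same order, and Nags 87, 23 and 32. Arg2 had 1049 UMIs at day 4, 3479 at day 21 and 527 in the control, which is 30.1, 67.0 and 19.4 CPM. Nos2 had 2 UMIs at day 4, 188 at day 21 and 5 in the control. After the barcode filter each gene was still highest in the same library. Ass1 had 119, 86.5 and 66.4 CPM at day 4, day 21 and in the control over all barcodes, and 89.4, 84.8 and 43.3 after the filter. Whole-library levels mix the share of each cell type with its content, so the genes were next followed within clusters.

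The barcode filter had kept 1508 of 2901 Cps1 UMIs at day 4, 299 of 392 at day 21 and 526 of 1123 in the control. Among kept cells, a single cluster carried most UMIs of Cps1, Otc, Arg1 and Nags. It held 214 cells at day 4, 196 at day 21 and 84 in the control, and all 14 hepatocyte markers were detected in each library. Its leading genes were Abcg8, Agxt2, Fabp1, Fabp2, Sult1d1 and Gnmt. Its cells were shallow, with a median of 1254.5, 1004.5 and 1589 UMIs at day 4, day 21 and in the control (0.318 times the median of their libraries), and none of the markers stood among its top genes, so it is called the hepatocyte-transcript cluster and not a cell type. Of the Cps1 UMIs in kept cells, 79.4% at day 4, 86.9% at day 21 and 70.6% in the control lay there, and of the Arg1 UMIs 85.8%, 81.3% and 71.4%. For Ass1 the cluster held 74.7% at day 4 and 51.2% in the control but 18.3% at day 21. Arg2 had 0, 1 and 0 UMIs in it at day 4, day 21 and in the control, and Nos2 had 0 in every library.

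In the hepatocyte-transcript cluster, Otc was higher in both tumour libraries and Ass1 at day 4, while Asl stood close to the control level at both times. A gene was called when its level, in CPM of the cluster's own UMIs, differed at least 2-fold and the counting interval of the ratio left out 1. By this rule 2 of the 7 members with 20 or more UMIs were higher at day 4 and none lower, where 2.98% of all 6474 genes measured were higher and 2.84% lower. At day 21 1 of 7 was higher and none lower, where 11.3% of 5351 genes were higher and 5.2% lower. The median log2 ratio of the 7 members was 0.77 at day 4, against 0.05 over all genes, and 0.43 at day 21, against 0.25.

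**Figure D1:**
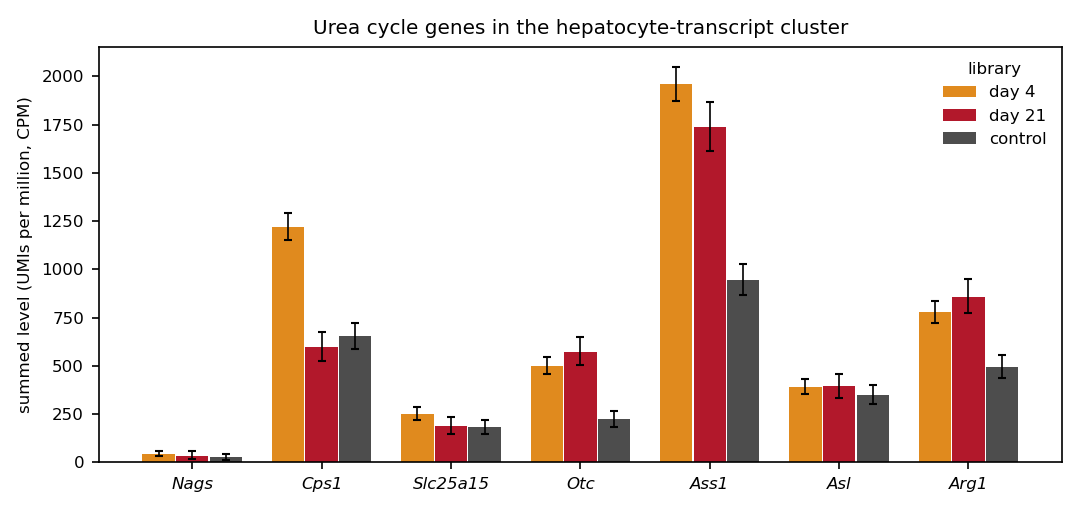
Summed level of the 7 urea cycle genes in the hepatocyte-transcript cluster, in CPM of the cluster's UMIs, at day 4, day 21 and in the control. Bars are 1 library each and error bars are exact Poisson 95% intervals; Otc, Ass1 and Arg1 stand above the control in both tumour libraries, and Cps1 and Slc25a15 at day 4.

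Of the mitochondrial steps, Otc alone was called. Nags (chr11:102145513-102149477, plus strand) was sparse, with 45 UMIs at day 4, 15 at day 21 and 15 in the control, or 46.0, 35.8 and 26.5 CPM. Its ratios to the control could not be told from 1, with log2 ratios of 0.77 (interval −0.07 to 1.75) at day 4 and 0.43 (−0.70 to 1.57) at day 21.

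Cps1 (chr1:67123026-67231259, plus strand) had 1192 UMIs at day 4, 251 at day 21 and 370 in the control. Its level was 1219, 599 and 654 CPM, so day 4 stood above the other libraries. The log2 ratio to the control was 0.90 (0.73 to 1.07) at day 4, short of 2-fold, and −0.12 (−0.36 to 0.11) at day 21. This value rests on a few deep cells, since the mean over cells of the level per cell put day 4 below the control at −0.32.

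Otc (chrX, above) had 489 UMIs at day 4, 240 at day 21 and 126 in the control, which gave 500, 573 and 223 CPM. Both tumour libraries lay above the control with intervals that did not overlap it. The log2 ratio was 1.16 (0.88 to 1.46) at day 4 and 1.36 (1.05 to 1.69) at day 21, and both were called. With barcodes of up to 50% mitochondrial UMIs let in, the day 4 ratio was 0.86 and no longer called.

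Slc25a15 (chr8:22375551-22398597, minus strand), the ornithine carrier, had 247 UMIs at day 4, 79 at day 21 and 103 in the control, or 253, 189 and 182 CPM. The day 21 and control values coincided within counting error. Log2 ratios were 0.47 (0.14 to 0.82) at day 4 and 0.05 (−0.39 to 0.49) at day 21.

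Among the cytosolic steps Ass1 had 1917 UMIs at day 4, 728 at day 21 and 535 in the control, or 1961, 1738 and 945 CPM. Its log2 ratio was 1.05 (0.91 to 1.19) at day 4, which was called, and 0.88 (0.72 to 1.04) at day 21, which was not. The day 4 call sits on the limit: it was lost at 0.96 with barcodes of up to 50% mitochondrial UMIs and at 0.99 with every cell thinned to 1000 UMIs. Asl (chr5:130011258-130029247, minus strand), which releases arginine and fumarate, was level, with 392 CPM at day 4, 394 at day 21 and 350 in the control from 383, 165 and 198 UMIs. Its log2 ratios were 0.16 (−0.09 to 0.42) and 0.17 (−0.14 to 0.48) at day 4 and day 21. Arg1 (chr10:24915221-24927484, minus strand), the arginase of the cycle, had 761 UMIs at day 4, 360 at day 21 and 280 in the control, or 778, 859 and 495 CPM. Both tumour libraries stood above the control but short of 2-fold, with log2 ratios of 0.65 (0.45 to 0.86) and 0.80 (0.57 to 1.03).

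The depth of a barcode moved with these levels. After the values above were seen, the cluster was split at 1000 and 10000 UMIs per barcode. The deepest barcodes, 24 at day 4, 8 at day 21 and 12 in the control, held 66.7%, 29.9% and 73.7% of the cluster's UMIs and 91.9%, 40.2% and 82.2% of its Cps1 UMIs. Within them Cps1 reached 1681 CPM at day 4, against 806 at day 21 and 729 in the control, a day 4 log2 ratio of 1.20 (1.02 to 1.39). In barcodes of 1000 to under 10000 UMIs Cps1 had 293 CPM at day 4, 568 at day 21 and 407 in the control, so the order of the libraries was another one. The summed day 4 level of Cps1 therefore comes from 24 barcodes.

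Otc kept its order in the shallow barcodes and lost it at day 21 in the deep ones. It had 606, 631 and 207 CPM in barcodes of 1000 to under 10000 UMIs at day 4, day 21 and in the control, with log2 ratios of 1.53 (0.95 to 2.19) at day 4 and 1.59 at day 21. In barcodes of 10000 or more it had 422, 263 and 223 CPM, with log2 ratios of 0.91 (0.58 to 1.27) at day 4 and 0.25 (−0.38 to 0.83) at day 21. Ass1 stood at 2003, 1109 and 930 CPM in the deepest barcodes, with log2 ratios of 1.11 (0.94 to 1.27) at day 4 and 0.26 (−0.04 to 0.54) at day 21. Arg1 at day 21 went opposite ways by depth: 375 CPM against 554 in the control in the deepest barcodes, a log2 ratio of −0.55 (−1.05 to −0.10), and 892 CPM against 315 in barcodes of 1000 to under 10000, a log2 ratio of 1.49 (1.01 to 2.03). The day 21 ratios of Otc, Ass1 and Arg1 thus rest on barcodes below 10000 UMIs, and only 8 deep barcodes were there to set beside 12 in the control.

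**Figure D2:**
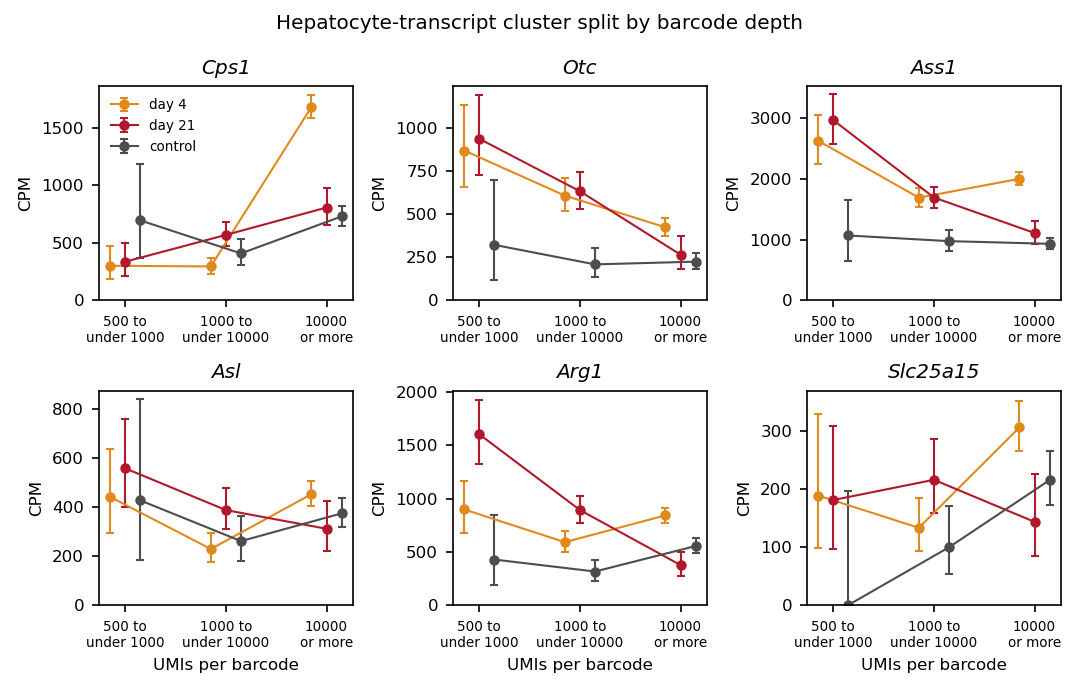
Level (CPM) of 6 members in the hepatocyte-transcript cluster against the UMIs per barcode in 3 classes, at day 4, day 21 and in the control, with exact Poisson 95% intervals. Cps1 at day 4 is high at 10000 UMIs or more and low below. At day 21 Otc, Ass1 and Arg1 lie above the control below 10000 UMIs, and at day 4 Ass1 lies above it in all 3 classes.

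Other cells' transcripts moved with library in the same cluster. Summed hepatocyte markers were at 106186 CPM at day 4, 86212 at day 21 and 120628 in the control, with 14 of 14 detected each time. The 12 neutrophil markers summed to 202, 6314 and 93.6 CPM with 10, 12 and 4 detected, and the 10 erythroid markers to 1496, 6816 and 68.9 CPM with 6, 7 and 6 detected. The part of these in the results was not tested. All of Cps1, Otc, Ass1, Asl and Arg1 were seen together in 34 of 214, 22 of 196 and 12 of 84 barcodes at day 4, day 21 and in the control, and none of them in 31, 28 and 17.

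The neighbours of the cycle in this cluster were described by lists. Of the 10 periportal hepatocyte genes, 4 were called higher at day 4 and 3 at day 21, none was lower, and the median log2 ratio was 0.86 and 0.62. Of the 9 pericentral genes measured, none was called at day 4 and 3 were lower at day 21, with medians of −0.19 and −0.57. The periportal list summed to 5135 CPM at day 4, 4221 at day 21 and 4319 in the control, so its day 21 sum was not above the control. The pericentral list summed to 7347, 5035 and 8295 CPM. Over all genes measured 2.98% were higher and 2.84% lower at day 4, and 11.3% higher and 5.2% lower at day 21. These lists were not split by barcode depth as the members were, so a part of depth in their values was not tested. Etnppl, which breaks down phosphoethanolamine, had 196 CPM at day 4 against 60.1 in the control. Hal, which deaminates histidine, had 335 CPM at day 4 and 411 at day 21 against 115 in the control. Cyp2f2, a periportal cytochrome P450, had 492 CPM at day 4 against 212, and the pericentral Cyp2e1 578 CPM at day 21 against 2701, a log2 ratio of −2.22 (−2.43 to −2.03). Slc1a2, a pericentral glutamate transporter, had 83.6 CPM at day 21 against 279 in the control. Ctsc, a lysosomal protease in the periportal list that leukocytes also express, had 167 CPM at day 21 against 51.2.

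Of 12 ammonia capture and amino acid breakdown genes 2 were called higher at day 4 and 1 at day 21, with medians of 0.59 and 0.22. Gls2, the liver glutaminase that releases ammonia beside Cps1, had 192 CPM at day 4 against 88.3 in the control. It is also in the list for the aspartate and citrulline side of the cycle, of whose 10 measured genes 1 was higher at each time, with medians of 0.08 and 0.31. Of 5 genes in the list for other uses of arginine, which takes in creatine synthesis, 1 was higher at day 4 and 2 at day 21. Gamt, which makes creatine, had 433 CPM at day 4 against 201. Of 8 genes of nitric oxide synthesis and its cofactor none was called at day 4 and 1 was higher at day 21, with medians of 0.32 and 0.74. Of the genes that use ornithine, none of 9 was called at day 4 and 1 of 8 was higher at day 21; this was Odc1, the first enzyme of polyamine synthesis, with 38.9, 74.0 and 31.8 CPM at day 4, day 21 and in the control. Of 2 arginine transporters 1, Slc7a2, was lower at day 21, with 209, 117 and 283 CPM and log2 ratios of −0.44 and −1.26.

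None of the remaining neighbours was called. The aspartate carrier Slc25a13 had 124, 117 and 117 CPM at day 4, day 21 and in the control. The ornithine aminotransferase Oat had 1398, 1050 and 1042 CPM, a log2 ratio of 0.42 (0.28 to 0.57) at day 4. The glutamine synthetase Glul had 1178, 1022 and 1523 CPM, with log2 ratios of −0.37 (−0.50 to −0.24) at day 4 and −0.57 (−0.75 to −0.41) at day 21. Nos3, the endothelial nitric oxide synthase, had 6, 6 and 9 UMIs. Among 5 measured inducers of Nos2 2 were higher at day 4 and 3 at day 21, with medians of 0.75 and 1.28; Il1b had 51, 40 and 1 UMIs in this cluster, beside the neutrophil marker sums above. Of 4 genes of alternative activation none was called at day 4 and Il4ra, a receptor chain for interleukins 4 and 13, was higher at day 21, with 38.2 CPM against 12.4. None of the 17 hepatocyte reference genes was called at day 4 and 1 was lower at day 21, with medians of −0.17 and −0.30.

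Outside this cluster a low level of hepatocyte transcripts is present in droplets of every type, so each member was set against the level such free RNA would bring: the UMIs of the 17 reference genes in a class, multiplied by the ratio of the member to them in the hepatocyte-transcript cluster of the same library. A ratio of observed to expected UMIs of 1 means that the class held the member in the proportion of the hepatocyte transcripts around it. In endothelial-like cells Cps1 stood at 0.91, 0.99 and 0.79 times this level at day 4, day 21 and in the control, Otc at 0.76, 0.26 and 0.72, and Ass1 at 0.77, 1.11 and 0.95. In Kupffer-like cells (liver macrophages) Cps1 stood at 0.63, 1.30 and 1.08 times it. Otc stood at 0.46, 0.68 and 1.12 times it, and Nags had 5 UMIs or fewer in each library of either class. By this measure neither Cps1 nor Otc stood clearly above the free level in these cells. The measure uses the summed cluster, whose Cps1 UMIs at day 4 came mainly from deep barcodes. In the whole cluster at day 4 Cps1 stood at 1219 CPM beside 111587 CPM of the reference genes. In barcodes of 1000 to under 10000 UMIs it stood at 293 CPM beside 64991. A free level set from those shallower barcodes would be lower for day 4 Cps1 and its ratios higher, and it was not computed.

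Asl stood above the free level in these cells, and Slc25a15 did so in endothelial-like cells. Asl had 165 UMIs at day 4, 32 at day 21 and 92 in the control in Kupffer-like cells, or 24.0, 20.4 and 25.5 CPM, which is 3.55, 6.31 and 3.63 times the free level. In T-like cells it had 27.6, 27.7 and 28.1 CPM, 8.40, 17.5 and 9.22 times it, and in endothelial-like cells 14.6, 18.3 and 17.4 CPM. The Asl level thus varied little between libraries in each of these classes. Slc25a15 in endothelial-like cells had 56, 22 and 50 UMIs at day 4, day 21 and in the control, 3.02, 8.68 and 3.38 times the free level. In B-like cells Slc25a15 had 6, 23 and 2 UMIs, or 7.3, 12.5 and 1.7 CPM. Its day 21 log2 ratio of 2.59 (0.87 to 6.01) met the call rule, and 95.8% of the genes measured there had a lower ratio. A cluster of early B cells led by Vpreb2, Igll1 and Rag1 was held almost wholly by the day 21 library. Among other named classes, Cps1 was called higher at day 4 in stellate-like cells (31 against 8 UMIs, log2 ratio 1.86) and T-like cells (18 against 8, 1.35). Otc was called higher at day 4 in endothelial-like cells (28 against 13 UMIs, 1.10). Ass1 was called lower at day 21 in stellate-like cells (14 against 98 UMIs, −1.27) and higher in conventional dendritic-like cells, as given below. Of genes measured in the same class and contrast, 99.8% had a lower ratio than Cps1 in stellate-like cells and 98.3% in T-like cells. The same share was 99.1% for Otc in endothelial-like cells and 3.0% for Ass1 in stellate-like cells. The part of free RNA in these calls was not tested.

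**Figure D3:**
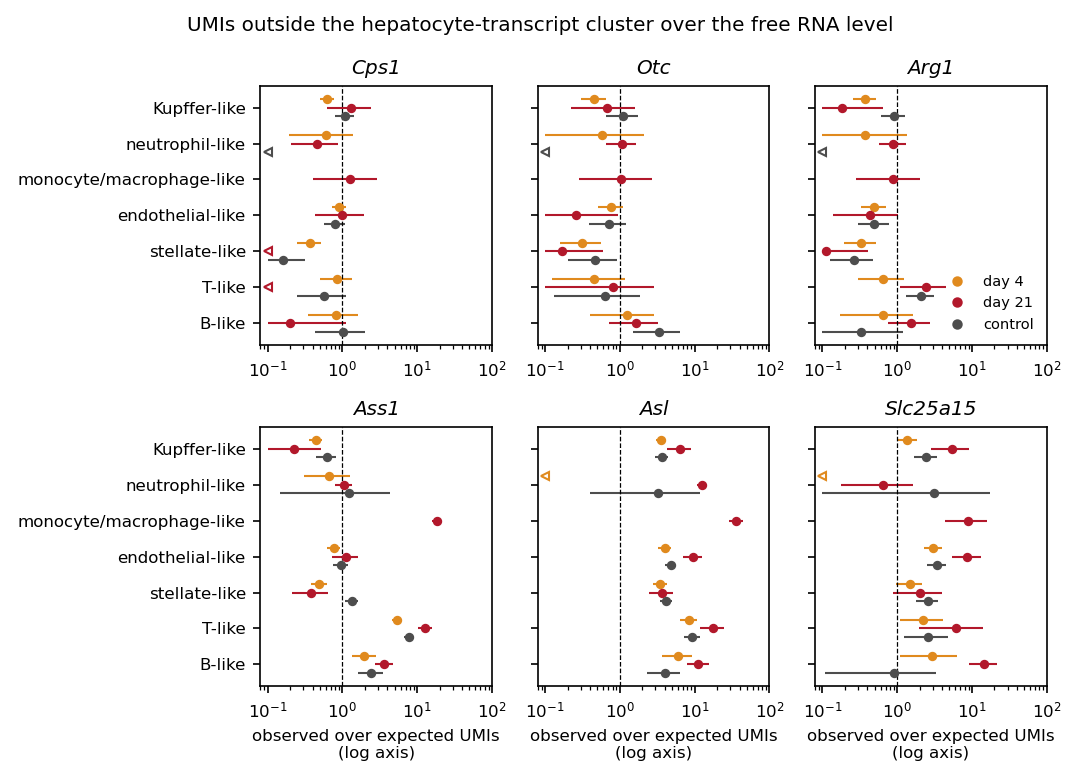
Observed UMIs of 6 members over the UMIs expected from free hepatocyte RNA (log axis, dashed line at 1) in classes outside the hepatocyte-transcript cluster, at day 4, day 21 and in the control, with exact Poisson 95% intervals on the observed count; open triangles are 0 UMIs and groups under 50 cells are not drawn. Cps1 and Otc lie around or below 1 in most classes and Asl above 1, and Ass1 is above 1 in T-like and monocyte/macrophage-like cells.

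Arg1 was sparse in every myeloid class. Kupffer-like cells held 34 Arg1 UMIs in 935 cells at day 4, 2 in 679 at day 21 and 32 in 481 in the control, 0.37, 0.18 and 0.89 times the free level, and no cell had more than 2. Neutrophil-like cells held 2 UMIs in 193 cells at day 4, 25 in 3376 at day 21 and 0 in 56 in the control, where a count of 0 allows up to 33.7 CPM. At day 21 this was 2.04 CPM, 0.88 times the free level. Monocyte/macrophage-like cells at day 21 held 5 Arg1 UMIs in 589 cells, 0.88 times the free level. Conventional dendritic-like cells at day 21 held 7 Arg1 UMIs in 120 cells, 4.79 times it, with up to 3 in 1 cell. T-like cells held 9, 9 and 22 Arg1 UMIs at day 4, day 21 and in the control, with as many as 7 in a single control cell.

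Within Kupffer-like cells none of the 7 measured members was called at day 4, where 1.29% of 10676 genes were higher and 2.12% lower. At day 21 3 of 7, Cps1, Ass1 and Arg1, were lower and none higher, where 5.42% of 9687 genes were higher and 4.85% lower. The 17 hepatocyte reference genes moved with them: 14 were lower at day 21, with a median log2 ratio of −1.69, and summed hepatocyte markers in these cells were 1795 CPM at day 4, 700 at day 21 and 2404 in the control, with 14 of 14 detected each time. The part of free RNA in the 3 calls was not tested beyond these ratios. The Arg1 call rests on 2 UMIs at day 21, and with at most 10% mitochondrial UMIs its log2 ratio was 1.71.

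Arg2 (chr12:79130777-79156301, plus strand) had the reverse distribution, with its UMIs in Kupffer-like and neutrophil-like cells. Kupffer-like cells held 72.1% of the Arg2 UMIs of kept cells at day 4 and 85.7% in the control but 4.4% at day 21, where neutrophil-like cells held 81.9%, against 19.8% at day 4 and 7.0% in the control. The level in Kupffer-like cells was 101 CPM at day 4, 84.3 at day 21 and 118 in the control, from 692, 132 and 426 UMIs. Its log2 ratio to the control was −0.23 (−0.40 to −0.05) at day 4 and −0.48 (−0.78 to −0.20) at day 21, both well short of 2-fold.

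Of Kupffer-like cells 40.7% had an Arg2 UMI at day 4, 16.2% at day 21 and 46.2% in the control, at median depths of 7402, 1998 and 7770 UMIs. T-like cells, a type not known for Arg2, had one in 0.41%, 0.53% and 0% of cells at median depths of 3863.5, 1741 and 3683. Thinned to 1000 UMIs per cell, with 86, 136 and 42 shallower cells left out, the Kupffer-like share was 7.77% of 849 cells at day 4, 8.29% of 543 at day 21 and 7.74% of 439 in the control. The shares of cells with Arg2 therefore coincided once depth was made equal. Most Kupffer-like cells came from a cluster led by Cd209f, Folr2 and Clec4f at day 4 and in the control (754 and 387 cells) and from one led by Marco and Nr1h3 at day 21 (573 cells). In the first cluster Arg2 had 104, 84.8 and 122 CPM at day 4, day 21 and in the control, and in the Marco cluster 45.2, 84.2 and 65.3 CPM from 19, 96 and 16 UMIs. Neutrophil markers in Kupffer-like cells summed to 114 CPM at day 4, 6510 at day 21 and 124 in the control, with 10, 12 and 9 of 12 detected, and their part in the Arg2 value was not tested.

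Neutrophil-like cells had the highest Arg2 level of any named class in each library. They held 190 UMIs in 193 cells at day 4, 2482 in 3376 cells at day 21 and 35 in 56 cells in the control, which is 522, 202 and 393 CPM. The log2 ratio was 0.39 (−0.12 to 0.97) at day 4 and −0.98 (−1.44 to −0.43) at day 21. At day 21 57.9% of all genes measured in these cells had a lower ratio than Arg2, beside a downward shift over all genes given below. A single neutrophil-like cluster led by Saa3, Slc7a11 and Acod1 held most of the class at day 4 and in the control (178 and 53 cells) but 1038 of the 3376 cells at day 21. Within it Arg2 had 613 CPM at day 4, 531 at day 21 and 468 in the control, with log2 ratios of 0.37 (−0.15 to 0.96) and 0.16 (−0.31 to 0.73). Within this cluster the level could not be told from the control at either time. In a finer clustering, neutrophil-like cells led by Saa3 and Igfbp6 numbered 48 at day 4, 1162 at day 21 and 18 in the control. Those led by Slc7a11 and Gm13822 numbered 134, 13 and 36. The Saa3 cluster may therefore not hold like cells in each library.

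At day 21 Arg2 differed widely between the neutrophil-like clusters. It stood at 531 CPM in the Saa3 cluster, 352 in 1010 cells led by Prok2 and Retnlg, 147 in 288 cells led by stefin A genes, and 77.5 in 1040 cells led by the granule genes Ltf, Ly6g and Camp. Precursor-like cells led by Fcnb, Camp and Cebpe had 9.07 CPM and those led by Elane, Prss57 and Ctsg, genes of early granule formation, 1.69 CPM. The intervals of these 6 values do not overlap, and Arg2 was not among the genes used to make the clusters.

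An Arg2 UMI was seen in 59.1%, 47.5% and 48.2% of neutrophil-like cells at day 4, day 21 and in the control at median depths of 1595, 2876 and 1412 UMIs. Thinned to 1000 UMIs the share was 42.9% of 177, 24.2% of 2902 and 30.6% of 49 cells, while T-like cells thinned the same way had 0%, 0.38% and 0%. Monocyte/macrophage-like cells at day 21 held 235 Arg2 UMIs in 589 cells, or 85.5 CPM, with one in 27.7% of cells. That class had 24 cells at day 4 and 26 in the control, with 3 and 1 Arg2 UMIs, too few for a comparison. Endothelial-like cells had 0.51, 1.83 and 0.51 CPM of Arg2 and stellate-like cells 4.4, 9.4 and 4.8 at day 4, day 21 and in the control.

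**Figure D4:**
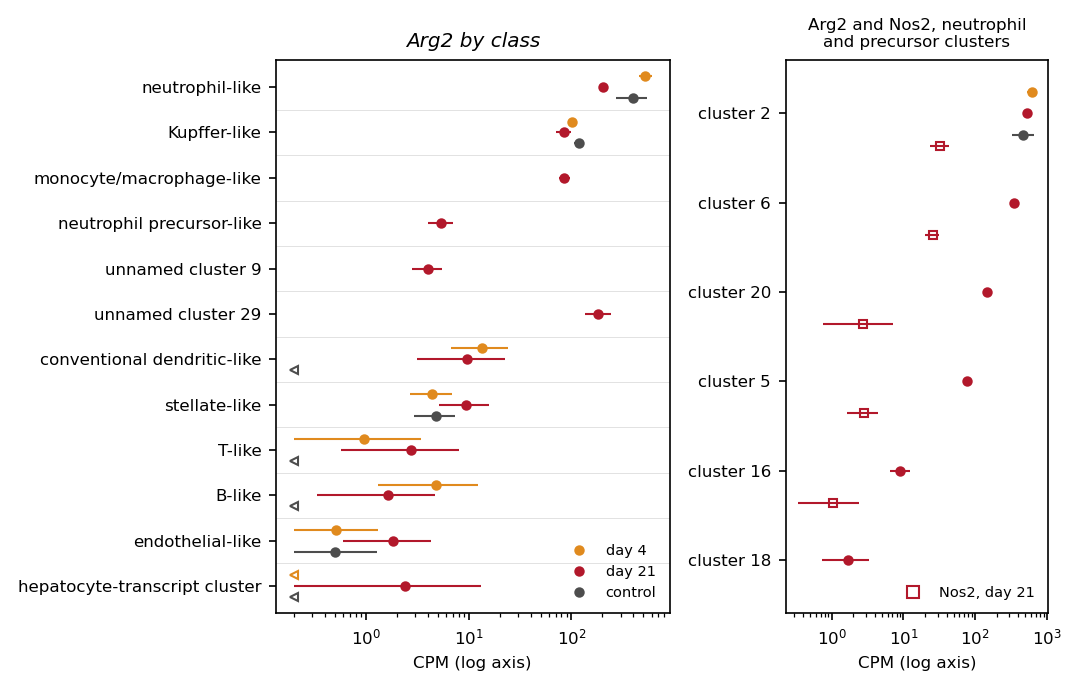
Left, Arg2 level (CPM, log axis) by class at day 4, day 21 and in the control; right, Arg2 (filled) and day 21 Nos2 (open squares) in the neutrophil-like and precursor-like clusters; lines are exact Poisson 95% intervals, open triangles are 0 UMIs, and groups under 50 cells are not drawn. Arg2 runs from 1.69 CPM in the Elane-led precursor cluster 18 to 531 CPM in the Saa3 cluster 2 at day 21, and Nos2 is highest in clusters 2 and 6.

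Nos2 (chr11:78920787-78960254, plus strand) was found mainly in day 21 neutrophil-like cells, with 87.1% of the 163 UMIs in clustered day 21 cells. They held 142 Nos2 UMIs in 122 of 3376 cells, or 11.6 CPM (9.76 to 13.6). Day 4 neutrophil-like cells had 0 UMIs, which allows up to 8.24 CPM, and control cells 0, which allows up to 33.7 CPM, so the day 21 level would not have been detectable in the control cells. In the Saa3 cluster Nos2 had 32.4 CPM (23.3 to 43.8) at day 21, and in the Prok2 cluster 25.4 CPM (20.1 to 31.7). The granule-gene cluster had 2.79 CPM. In the Saa3 cluster at day 4, 0 UMIs came with an exact upper bound of 12.9 CPM, which lies below the day 21 interval. As given for Arg2, this cluster may not hold like cells in each library.

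Arg2 and Nos2 were set side by side in single cells. Of the 122 neutrophil-like cells with Nos2 at day 21, 64 also had Arg2, which is 52.5%, while 47.5% of all day 21 neutrophil-like cells did. These shares were matched neither for cluster nor for depth, so they cannot show whether both genes tend to share cells. Kupffer-like cells had 0 Nos2 UMIs in every library, with limits of 0.44, 1.92 and 0.83 CPM at day 4, day 21 and in the control. Monocyte/macrophage-like cells at day 21 also had 0. Endothelial-like cells had 1, 4 and 4 Nos2 UMIs. In neutrophil-like cells none of the members was called at either time: 1 member was measured at day 4, where 2.89% of 2493 genes were higher and 5.33% lower, and 6 at day 21, where 1.46% of 8037 genes were higher and 22.1% lower.

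Ass1 was also found in blood cell clusters. At day 21 54.7% of its UMIs in kept cells lay in an unnamed cluster led by Muc13, Bex6, Hoxa9 and Gria3, which monocyte and neutrophil precursor markers described equally well. That cluster had 2172 Ass1 UMIs in 866 day 21 cells, 228 CPM (219 to 238) and 118 times the free level, and 70.8% of its cells had one at a median depth of 10332.5 UMIs. The same share was 0.74% in day 21 Kupffer-like cells at 1998 UMIs. With every cell thinned to 1000 UMIs the shares were 16.9% and 0.55%. It held 5 cells at day 4 and 6 in the control, with 6 and 11 Ass1 UMIs.

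All kept cells were also clustered more finely, which gave other groups of day 21 cells with Ass1. Ass1 had 306 CPM in 552 monocyte/macrophage-like cells led by Rnase2a and F13a1, 113 CPM in 383 stem and progenitor-like cells led by Nkx2-3, Muc13 and Hoxa9, and 105 CPM in 368 precursor-like cells led by Elane and Prss57. Monocyte/macrophage-like cells led by Ace and Vcan had 54.0 CPM. In the main clustering the Elane cluster had 104 CPM and the Fcnb and Camp cluster 2.88, from 494 and 14 UMIs. Day 21 neutrophil-like cells had 60 Ass1 UMIs in 3376 cells. Of these day 21 clusters Ass1 was thus highest in the one led by Rnase2a and F13a1.

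T-like cells held 185 Ass1 UMIs at day 4, 97 at day 21 and 158 in the control, or 88.1, 89.4 and 64.3 CPM, which is 5.35, 12.8 and 7.81 times the free level. The log2 ratios were 0.45 (0.14 to 0.77) and 0.48 (0.10 to 0.85), short of 2-fold, and the day 21 value was 0.056 with cells thinned to 1000 UMIs. Most of it came from the T-like cluster led by Dapl1, Cd8b1, Tcf7, Lef1, Ctla4 and Tnfsf8. That cluster had 123, 127 and 86.0 CPM of Ass1 at day 4, day 21 and in the control. The T-like cluster led by Cxcr6 and Il2rb had 32.9, 18.6 and 23.4 CPM. Conventional dendritic-like cells had 27 Ass1 UMIs at day 4, 43 at day 21 and 16 in the control, or 33.0, 83.8 and 31.1 CPM. The day 21 log2 ratio of 1.40 (0.57 to 2.36) met the call rule, and 94.6% of genes measured there had a lower ratio. In Kupffer-like cells Ass1 stood below the free level, at 0.44, 0.22 and 0.61 times it.

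**Figure D5:**
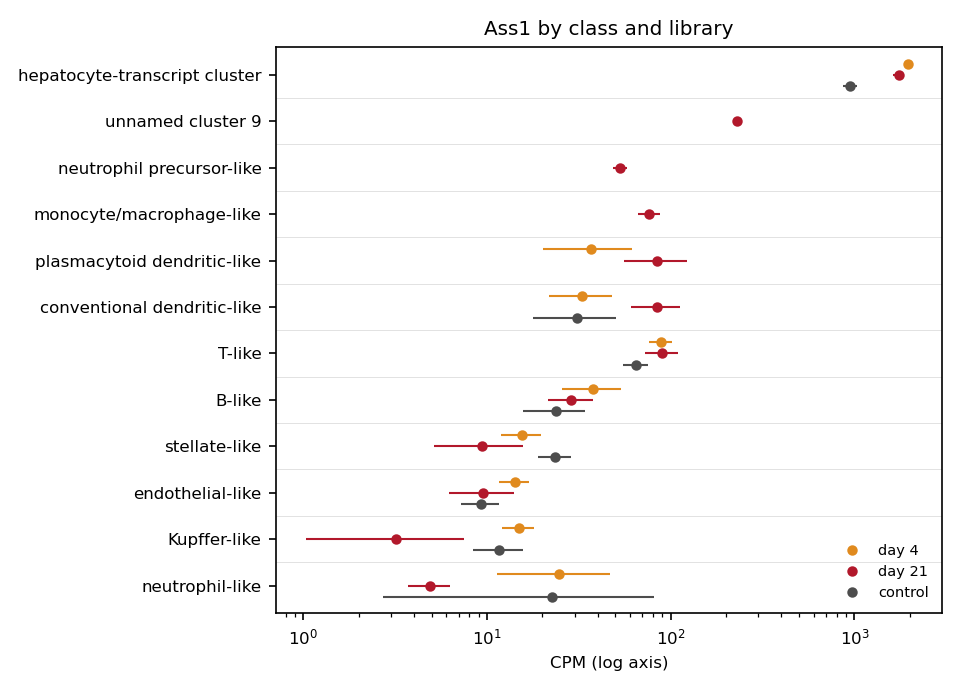
Ass1 level (CPM, log axis) by class at day 4, day 21 and in the control with exact Poisson 95% intervals; groups under 50 cells are not drawn. The hepatocyte-transcript cluster is highest, and the unnamed cluster 9 follows at day 21 with 228 CPM.

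The lists around the cycle in Kupffer-like cells held few calls. Of 14 ornithine-using genes 1 was lower at day 4, and of 13 at day 21 1 was higher and 1 lower; Amd1, which makes decarboxylated S-adenosylmethionine for polyamines, had 4.66 CPM at day 4, 1.92 at day 21 and 11.1 in the control, and the day 21 value rests on 3 UMIs. Of 7 genes of nitric oxide synthesis and its cofactor 1 was higher at day 4 and none was called at day 21. Of 8 Nos2 inducers 1 was higher at day 4 and 2 at day 21, Il1b having 386, 410 and 154 CPM. Of the genes of alternative activation, none of 8 was called at day 4 and 2 of 9 were higher at day 21; Chil3, a chitinase-like protein of myeloid cells, had 20 UMIs at day 21 and 0 in the control, at least 15.4-fold higher against 3 counts. Neutrophil markers in Kupffer-like cells stood at 6510 CPM at day 21 against 124 in the control, as given for Arg2, and neutrophil-like cells at day 21 had 720 CPM of Chil3. Their part in the day 21 values of Chil3 and Il1b was not tested.

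No arginine transporter (of 4 and 3) or gene in the list for other uses of arginine (of 5) was called in Kupffer-like cells at either time. Of the hepatocyte lists there, 1 of 8 periportal genes was lower at day 4 and 1 of 5 at day 21, and of the pericentral genes none of 9 at day 4 and 2 of 8 at day 21. Pck1, of glucose synthesis, had 18.6, 7.03 and 40.1 CPM at day 4, day 21 and in the control, Tat, which breaks down tyrosine, 6.39 CPM at day 21 against 26.6, and Cyp2e1 8.31 CPM at day 21 against 33.8. For ammonia capture and amino acid breakdown none of 11 was called at day 4 and 1 of 9 was lower at day 21, and for the aspartate and citrulline side none of 9 at day 4 and 1 of 9 lower at day 21. The neighbours were Oat with 98.4, 96.5 and 95.8 CPM, Odc1 with 26.3, 32.6 and 37.1, Glul with 340, 461 and 462 and Slc25a13 with 5.68, 12.1 and 7.47 at day 4, day 21 and in the control.

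In neutrophil-like cells, where the control had 56 cells, Chil3 had 192 CPM at day 4 and 720 at day 21 against 11.2 in the control, the last from 1 UMI. Il1b had 1201 CPM at day 21 against 5770, a log2 ratio of −2.27 (−2.39 to −2.13), and Glul 52.2 CPM at day 4 and 31.2 at day 21 against 123. Ddah2, which breaks down inhibitors of nitric oxide synthase, had 2.61 CPM at day 21 against 33.7, and the macrophage receptor Mrc1 4.81 against 33.7, each from 3 control UMIs. Pck1, which hepatocytes also express, was lower at day 21 too, from 6 control UMIs, beside 14 of 16 measured hepatocyte reference genes and a summed hepatocyte marker level of 1992 CPM at day 4, 235 at day 21 and 2324 in the control. The median log2 ratio over all genes measured was −1.22 at day 21, and the 12 neutrophil markers summed to 221043 CPM at day 4, 445077 at day 21 and 169945 in the control. The Saa3 cluster held 53 of the 56 control cells but 1038 of the 3376 cells at day 21, and these genes were not compared within it. The part of this mix and of the shift in the values above was not tested.

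The genes whose levels ran most like a member over 44 points, each a class in a library with at least 50 cells, were named by Pearson's r on log2(CPM + 1) levels. The points share libraries, depth and free RNA, so r is a description. Nearest to Cps1 were Cyp3a11 (0.940), Cyp3a25 (0.932) and Serpind1 (0.919), and to Otc Gsta3, Cpn1 and Agmat (0.903, 0.903 and 0.902). Nearest to Arg1 were Sult1d1, Akr1c6 and Uroc1 (0.884, 0.881 and 0.880). Among those nearest to Slc25a15 was Acadm (0.852). Ass1 was nearest to Ddt, Got2 and Gcat (0.852, 0.809 and 0.802), and Asl to Etfa, Lactb2 and the member Slc25a15 (0.829, 0.820 and 0.791). Arg2 was nearest to the myeloid receptor genes Pilrb2 (0.900), Fpr1 (0.882) and Pilra (0.878), and its r with the other members lay between −0.17 and −0.37. Cps1 and Otc had an r of 0.811 with each other.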

How the data were processed

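The deposited values are UMI counts per gene and barcode in filtered matrices, for which the file headers give software version 3.1.0 without naming the program and the submitters' processing notes name build mm10; the labels name the 3′ v2 kit. The authors' counts were used as deposited, with no normalization before summing. The 9 members and all gene lists were chosen with earlier results of these data known. Each group is 1 library, so depth sets the precision and no p-value is given.

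Barcodes under 200 genes or over 20% mitochondrial UMIs were dropped. Scrublet doublet calls with its own threshold per library, at an expected 0.8% per 1000 barcodes, removed 99 cells at day 4, 732 at day 21 and 40 in the control. Counts scaled to 10000 per cell were log-transformed, and 2000 variable genes without members or lists gave 30 components, 15 neighbours and Leiden clusters at resolution 1 (scanpy 1.11.5, leidenalg 0.10.2, Python 3.11.15). A cluster took a name from 3 or more detected markers, unless another type's markers tied or led its top 10 genes, or it was shallow with none there; the details of this rule were settled after clusters were seen. Of 22 marker lists and 11 gene lists, those printed are the ones measured in the classes described.

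UMIs were summed per class and library (CPM) with exact Poisson intervals, shares with Clopper-Pearson intervals, and log2 ratios with 0.5 counts added and exact conditional binomial intervals, from 20 UMIs and 50 cells in each library; a count of 0 allows up to 3 counts. PCR copies are removed by UMIs, but intervals cover counting error only. The computation of ratios, intervals and calls was checked on Poisson counts simulated from Kupffer-like sums. These had no added variation between cells, so the check does not cover such variation or the other classes. From the lists the text names at most the 6 largest called log2 ratios per class and contrast for the hepatocyte-transcript cluster and for Kupffer-like, neutrophil-like and endothelial-like cells, the 6 direct neighbours of the cycle, and for likeness the 3 genes of highest r with 200 or more UMIs; list genes of endothelial-like cells are not printed, and a few genes that the rule names are not reported here. The alternatives are given in the closing section. Promoters are RefSeq windows on GRCm38.p6 and gene positions GENCODE M21.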

Additional observations from a re-analysis of the deposited data

Results flagged for a closer look

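All 8 values here come from day 21 cells of classes with fewer than 50 control cells, so they entered no ratio. Each lay above the limit that a count of 0 would allow in the same day 21 cells. They were not set against the limits of the few control cells. Arg2 stood at 85.5 CPM (235 UMIs, 589 cells) in monocyte/macrophage-like cells, against 26 control cells. Ass1 stood at 76.4 CPM (210 UMIs) in the same cells. In neutrophil precursor-like cells (820 cells at day 21, 1 in the control) Arg2 had 5.43 CPM and Ass1 53.0 CPM. In the unnamed cluster 9 led by Muc13 and Hoxa9 (866 cells at day 21, 6 in the control) Ass1 had 228 CPM from 2172 UMIs and Arg2 3.99 CPM from 38. In plasmacytoid dendritic-like cells (89 at day 21, 42 in the control) Ass1 had 84.3 CPM from 27 UMIs.

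In the unnamed cluster 29 (65 cells at day 21, none in the control) Arg2 had 182.5 CPM from 51 UMIs. That cluster was led by Trim10 and other erythroid genes, while 10 neutrophil and 6 erythroid markers were detected in it, and it is not named for that reason.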

How the results depend on the processing

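Of the leading class ratios (Arg2 in Kupffer-like and neutrophil-like cells, Ass1 in T-like cells, and Cps1, Otc, Ass1, Asl and Arg1 in the hepatocyte-transcript cluster), 144 values under other settings kept their direction within the counting error, 31 moved beyond it and 1 reversed; the cause was not tested. In the hepatocyte-transcript cluster the log2 ratios to the control were as follows. With up to 50% mitochondrial UMIs Otc was 0.86 at day 4 and 1.02 at day 21, and Ass1 0.69 at day 21. With the class taken from each cell's own markers the day 4 and day 21 values were 1.28 and 0.43 for Cps1, 1.56 and 1.80 for Otc, 1.43 and 1.35 for Ass1, 0.50 and 0.64 for Asl, and 1.06 and 1.27 for Arg1. Thinned to 1000 UMIs they were 0.061 and −0.52 for Cps1 and 1.31 and 1.67 for Arg1, and at day 4 1.53 for Otc and −0.10 for Asl. As a mean over cells they were −0.32 (reversed) and −0.60 for Cps1, 1.505 and 1.69 for Otc and 1.17 and 1.81 for Arg1, with −0.12 for Asl at day 4 and 1.25 for Ass1 at day 21. With barcodes of 1000 or more UMIs, a setting chosen after seeing the data like the depth split and the single clusters, Ass1 at day 21 was 0.66 and Arg1 0.51.

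Thinned cells gave Arg2 in Kupffer-like cells −0.038 at day 4 and −0.0037 at day 21, and Ass1 in T-like cells 0.056 at day 21. Outside these, Arg1 in Kupffer-like cells reversed to 1.71 at day 21 with at most 10% mitochondrial UMIs and to 0.17 at day 4 as a mean over cells, and Otc in endothelial-like cells to −0.11 at day 4 when thinned, from 3 UMIs in each library. With genes of 5 or more UMIs the calls in 5 of 60 lists moved: 2 nitric oxide synthesis genes at day 4, and 2 ammonia capture and 3 periportal genes at day 21 in Kupffer-like cells, and 2 ammonia capture and 2 alternative activation genes at day 21 in the hepatocyte-transcript cluster. At most 10% mitochondrial UMIs left too few cells for the hepatocyte-transcript and neutrophil-like classes, and thinning or 1000 UMIs too few control neutrophil-like cells. No paired analysis was possible because each group is 1 library, and for the same reason none could be left out. With the barcode filter applied, 10 whole-library values moved beyond the counting error and 7 did not. Depth limits Nags everywhere, and Nos2 in 56 control neutrophil-like cells.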
